A study of Mus musculus with 35 samples.

Results

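The genes described here are 10 imprinted or imprinting-linked genes that are active in the hypothalamus: Snrpn, Snhg14, Gm44562, Ube3a, Ndn, Magel2 and Mkrn3, which lie in the mouse counterpart of the Prader-Willi region on chromosome 7, and Peg3, Nnat and Dlk1, which lie elsewhere. They are 10 of the 49568 genes in the count tables and were taken by gene name. Gm44562 was chosen by its lower counts in fasted S662D mice than in fasted controls, so its values in comparisons with fasted mice or with fasting are given as a description without a test. The other 9 were picked for their known role in the hypothalamus, and their tests were adjusted over all genes tested.

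The study sequenced polyA RNA from the hypothalamus of male B6/J mice at Zeitgeber time 16 (hours after lights-on) in 35 libraries, and n counts libraries throughout, since the labels do not say whether each came from 1 mouse. Fed control mice (n = 10) and fed PER2-S662D mice (n = 5) ate ad libitum. Fasted control mice (n = 10), fasted PER2-S662D mice (n = 5) and fasted mice labelled Per2 knockout (n = 5) had been without food for the preceding 16 h, since lights-on. PER2 is a clock protein that represses its own transcription, and S662D is a form with an aspartate at a serine that is phosphorylated in the wild type. The labels give no fed mice of the knockout genotype, no age, and no account of how the alleles were made or what the controls carry. Whole blocks of tissue holding the hypothalamus were dissected, so fewer cells of a type and less RNA per cell cannot be told apart.

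In the Prader-Willi region the maternal and the paternal chromosome are used differently. Snrpn, Snhg14, Ndn, Magel2 and Mkrn3 are transcribed from the paternal copy, while in neurons Ube3a is transcribed from the maternal copy, because the long Snhg14 transcript runs through Ube3a in the opposite direction on the paternal one. Loss of the paternal genes causes Prader-Willi syndrome, with insatiable appetite of hypothalamic origin, and loss of maternal UBE3A causes Angelman syndrome. Peg3, Nnat and Dlk1 are paternally expressed genes of other imprinted domains with roles in growth, feeding or development.

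Depth was 17959586 to 37027342 counts per library, and all 10 genes were among the 18063 genes with enough counts to test. In all groups the summed level of 10 hypothalamic marker genes was 528 to 762 CPM (counts scaled to a common library size), while 5 choroid plexus markers summed to anything from 18.3 to 1537 CPM, and pituitary markers to at most 5.73 CPM. The 5 thalamic markers summed to 970 to 1467 CPM. The 5 markers of cortex or amygdala summed to 104 to 173.5 CPM. Per2, the altered gene, was at 28.2 ± 1.87 CPM in fed controls (SD, n = 10), 29.0 ± 2.45 in fasted controls (n = 10), 18.7 ± 1.98 in fed S662D mice (n = 5) and 19.9 ± 2.38 in fasted S662D mice (n = 5). It was 30.3 ± 2.00 CPM in the libraries labelled Per2 knockout (n = 5), which did not go below the controls. The library numbers in the file headers form separate ranges for control replicates 1 to 5, control replicates 6 to 10, the labelled knockout and the S662D mice, and the part of the range in a genotype difference cannot be told apart from that of the genotype. In addition, replicates 2, 3 and 4 of both S662D groups carry an extra final digit in the library number, and what it stands for is not stated.

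The 7 genes of the region lay at its 2 ends, with Ube3a, Gm44562, Snhg14 and Snrpn at one and Ndn, Magel2 and Mkrn3 at the other. Coordinates are those of the count tables (GRCm38, also called mm10). Ube3a (chromosome 7, 59228750 to 59311536, plus strand) encodes a ubiquitin ligase. Snhg14 (59307924 to 59975759, minus strand) is a long non-coding host gene of small nucleolar RNAs whose far end overlaps the end of Ube3a by 1803 exon bases. Gm44562 (59258855 to 59260201, minus strand) is a single-exon transcript of 1347 bases, of the provisional GENCODE class TEC, inside the span of Ube3a, on the other strand, and shares 0 exon bases with it. Snrpn (59982495 to 60140219, minus strand) encodes a spliceosomal Sm protein and shares 34.1% of its exon bases with Gm38393, Snurf and Gm18908, so its count is uncertain. Ndn (62346569 to 62350262, plus strand), Magel2 (62377010 to 62381640, plus strand) and Mkrn3 (62417593 to 62420139, minus strand) share no exon base with another gene. Ube3a shares 27.3% of its exon bases with 9330162G02Rik, Gm44560 and Snhg14, and its count is uncertain too. The counting used no strand, so intronic reads of unspliced Ube3a, reads of the paternal antisense transcript and reads of Gm44562 itself cannot be told apart within the Gm44562 interval. Peg3 (chromosome 7, 6703892 to 6730431, minus strand) encodes a zinc-finger protein. Nnat (chromosome 2, 157560078 to 157562522, plus strand) encodes neuronatin, a small membrane protein, from inside the span of Blcap. Dlk1 (chromosome 12, 109452823 to 109463336, plus strand) encodes a transmembrane relative of the Notch ligands.

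**Figure D1:**
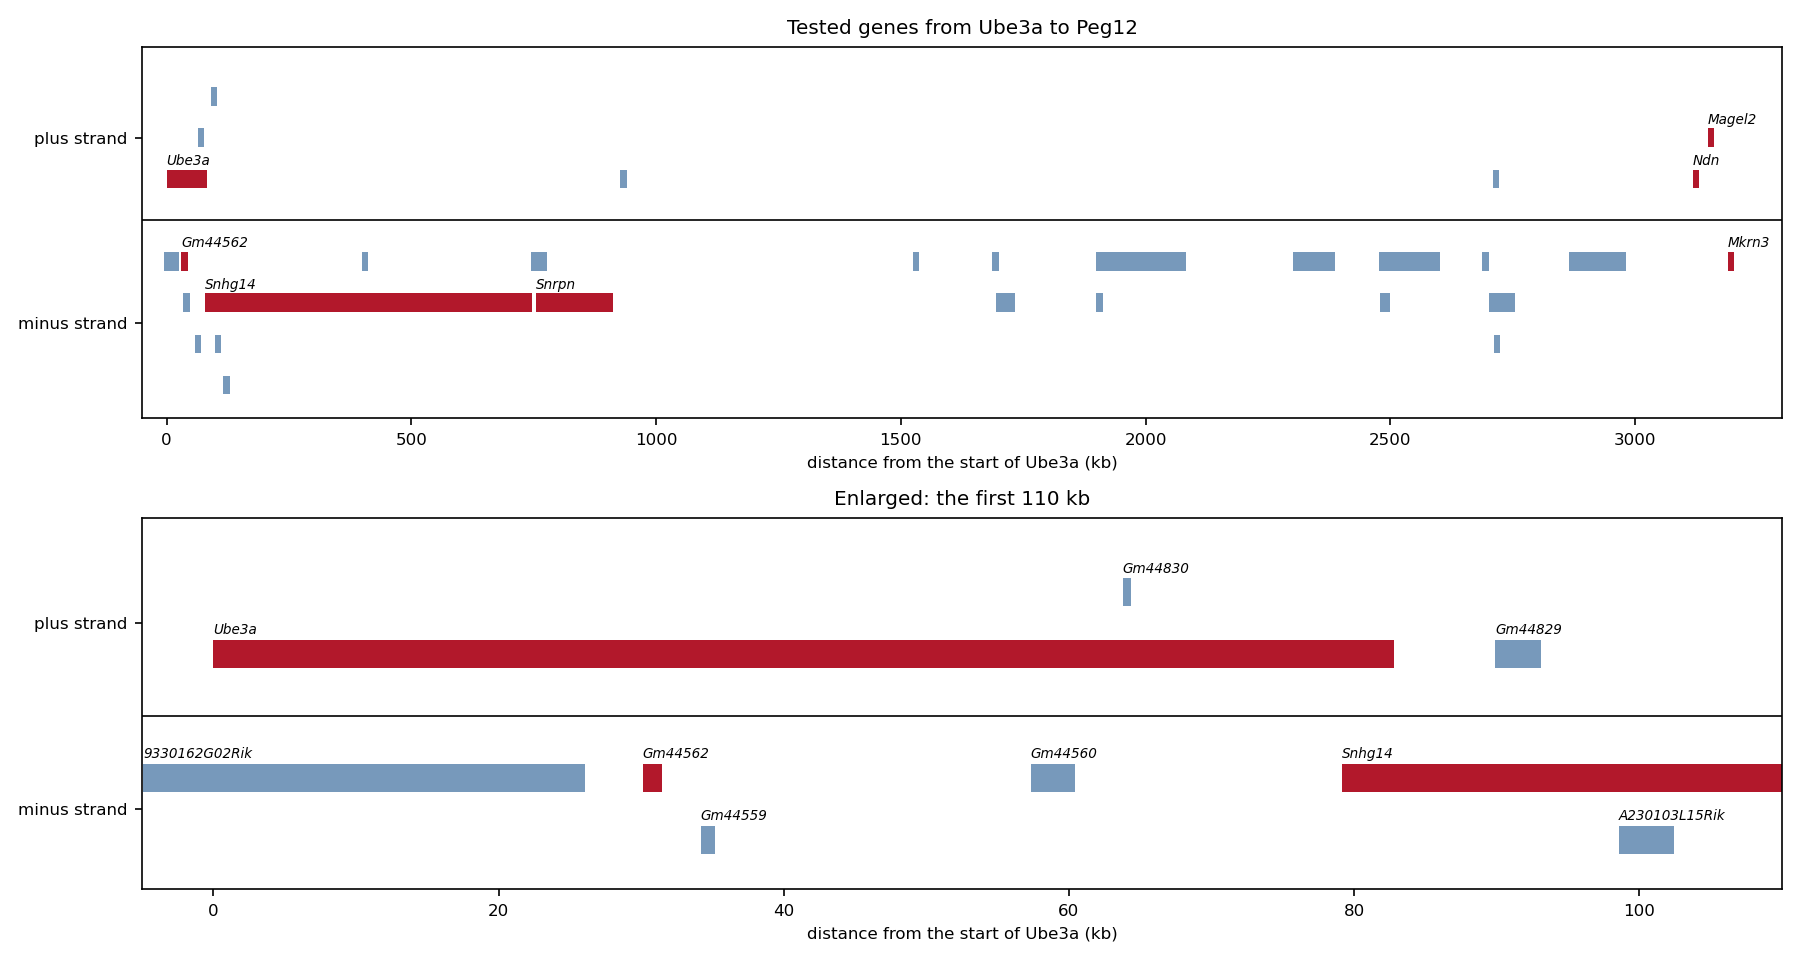
Spans of the 30 tested genes from Ube3a to Peg12 by strand, against the distance in kb from the start of Ube3a, with the 7 genes described here in red and the 23 others in blue (the lower panel enlarges the left end). Gm44562 lies inside Ube3a on the opposite strand, and Snhg14 runs toward it.

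The sequences that bear on what polyA libraries can count here are those of Gm44562, which varied with the libraries as described further on, and of small RNAs of the region. The last 150 bases of Gm44562 (chr7:59258855-59259004, GRCm38, minus strand, GENCODE M21) hold a polyadenylation hexamer AATAAA that runs into a stretch of A, in capitals:
Gm44562: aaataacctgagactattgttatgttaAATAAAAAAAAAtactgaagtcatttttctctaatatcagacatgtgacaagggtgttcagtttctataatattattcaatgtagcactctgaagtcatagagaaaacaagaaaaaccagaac
Of 3268 transcripts of the same class with at least 150 bases, 28.2% held AATAAA in their last 150 bases (same strand searched). The whole of Gm44562 had 30.8% GC, 6 copies of AATAAA and 4 runs of 8 or more A, the longest of 10. The copy in capitals lies toward the beginning of the bases shown, away from the annotated end. Its use as a polyadenylation signal was not tested.

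The Snord116 small RNAs, whose loss is the smallest paternal defect known to give a Prader-Willi-like phenotype, are processed from introns of Snhg14, and Snord64 lies between the counted spans of Snhg14 and Snrpn. One of 14 identical copies among the 17 genes named Snord116 (chr7:59902213-59902306) and Snord64 (chr7:59978808-59978874), both on the minus strand (GRCm38, GENCODE M21), show the C box and the D box of this class in capitals:
Snord116l11: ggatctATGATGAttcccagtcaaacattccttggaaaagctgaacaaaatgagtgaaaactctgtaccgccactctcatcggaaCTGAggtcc
Snord64: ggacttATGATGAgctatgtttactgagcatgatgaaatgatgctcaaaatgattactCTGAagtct
Further genes of 94 bases on the same strand carry Gm names, and whether they are copies of Snord116 was not examined. Some of these had counts, such as Gm26365 with 66 in total. All 17 genes named Snord116 and Snord64 were listed at 0 counts in all 35 libraries, and 143 of the 229 genes of up to 95 bases in the region were listed at 0. The Snhg14 count therefore describes the host transcript, and the mature small RNAs were not measured.

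The starts of 3 well expressed members share a short palindrome. The RefSeq start windows (250 bases before and 50 after the start, GRCm38.p6) of Ndn and Nnat, and 3 of those of Snrpn, hold CGCATGCG, the core of the NRF1 motif. The window listed for Snhg14, which is one of these Snrpn windows, holds it too. It is shown in capitals with 10 bases on each side at 3 of the Snrpn windows (chr7:60450223-60450250, chr7:60140286-60140313 and chr7:60048032-60048059, minus strand), at Ndn (chr7:62348244-62348271, plus strand) and at Nnat (chr2:157560043-157560070, plus strand):
Snrpn, farthest start: caaacatccaCGCATGCGtgattggaag
Snrpn, middle start: caaacatccaCGCATGCGtgatgggagg
Snrpn, nearest of these starts: caaacatgcaCGCATGCGtcgttgaagg
Ndn: cttcccaacaCGCATGCGcaatatcgca
Nnat: cccccaagcgCGCATGCGcacttaggtg
No copy is shown for the remaining Snrpn window (chr7:60005150-60005449, minus strand), which lies beside Snurf. The flanks of the 3 Snrpn copies are much alike, so these are not clearly separate instances. The motif reads the same on both strands, was chosen after the sequences were seen, and occurs in 1.86% of 32817 windows. The clock E-box CACGTG, present in 7.15% of windows (both strands), was in no window of the 9 members that have one. These letters are a description of the windows and say nothing of binding.

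The 10 genes covered a wide range of levels. Per kilobase of exon, the fed controls (n = 10) gave 233 ± 14.7 CPM for Nnat, 188 ± 10.6 for Snrpn, 120 ± 26.2 for Ndn, 65.4 ± 3.92 for Peg3 and 27.4 ± 1.47 for Dlk1 (SD). Snhg14 (7.55 ± 0.902), Magel2 (7.46 ± 0.775) and Ube3a (4.90 ± 0.433) formed a lower tier, in which Snhg14 and Magel2 did not differ beyond their spread. Gm44562 (0.995 ± 0.297) and Mkrn3 (0.339 ± 0.0992), a ring-finger protein gene known for restraining puberty, were the lowest. Their raw counts were 9 to 69 and 11 to 32 per library, so counting error is a large part of their spread.

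**Figure D2:**
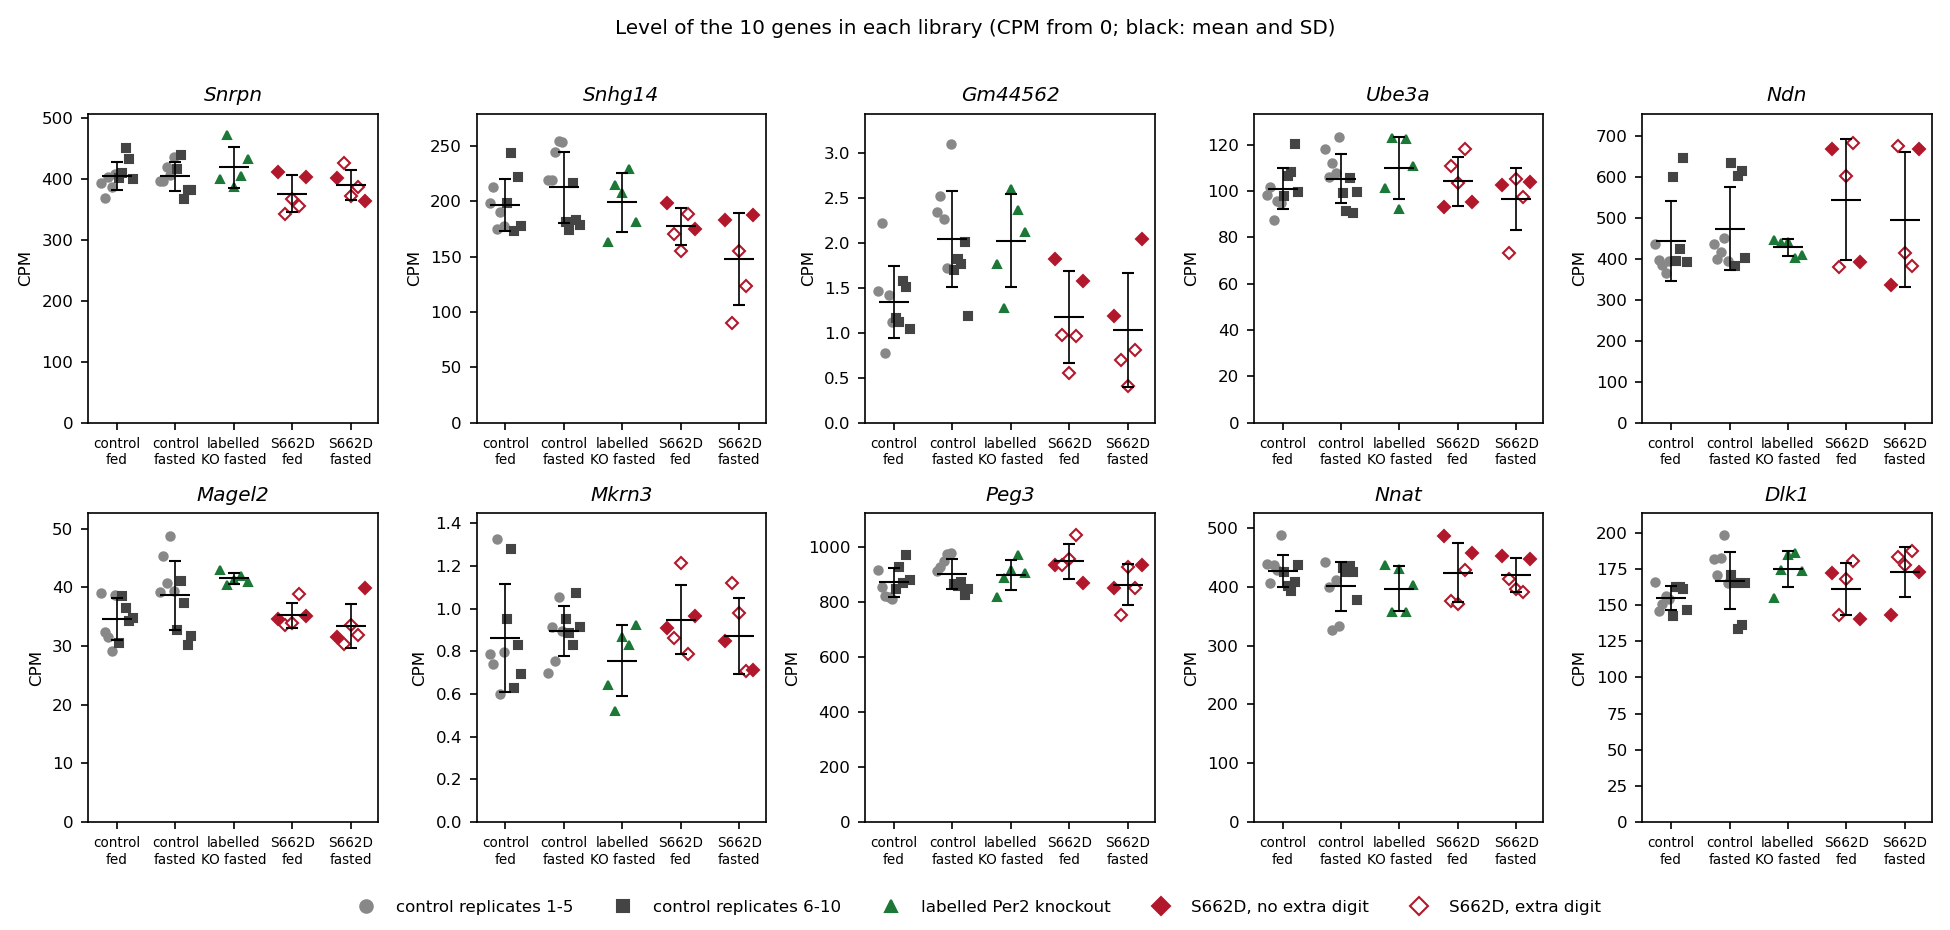
CPM of each gene in each of the 35 libraries by group, with the mean and SD in black. Snhg14 and Gm44562 reach their lowest values in S662D libraries with the extra digit (open diamonds), and Ndn splits into 2 levels.

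Snhg14 was lower in fasted S662D mice than in fasted controls. In fed controls its level ran from 173 CPM to 244 CPM with a median of 195 CPM. In fasted controls it ran from 174 to 255 CPM with a median of 218 CPM. The libraries labelled Per2 knockout gave 163, 215, 207, 229 and 182 CPM. Fed S662D mice gave 198, 170.4, 155, 189 and 175 CPM, and fasted S662D mice 183, 89.8, 156, 123 and 188 CPM (replicates 1 to 5). In all, 3 of the fasted S662D libraries lay below the lowest fasted control and the other 2 lay within the range of the controls, so the groups overlapped.

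Against fasted controls, Snhg14 fell by 0.52 on the log2 scale in fasted S662D mice (SE 0.13, adjusted p = 0.0173 after Benjamini-Hochberg correction in edgeR's quasi-likelihood fit). It was the only one of the 9 members to pass in that comparison, in which 5.57% of all genes tested passed and 2.23% passed with a lower level. In fed mice the difference was -0.15 (SE 0.13, adjusted p = 0.544), and the difference between the 2 genotypes' fasting responses was -0.37 (SE 0.18, adjusted p = 0.775), so the effect is not shown to differ between fed and fasted mice. The call was lost without the S662D libraries that carry the extra digit. With these alone the difference was -0.79 (adjusted p = 0.000322), with the 2 libraries without the digit it was -0.20 (adjusted p = 0.991), and with the digit as a term it was -0.33 (adjusted p = 0.669). Leaving out fasted S662D replicate 2 gave -0.39 (adjusted p = 0.0942), and leaving out replicate 4 also ended the call. It also ended against control replicates 6 to 10 alone (-0.34, adjusted p = 0.279) and when only the 2 groups entered the fit (-0.53, adjusted p = 0.118).

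Levels of other long non-coding RNAs moved with the extra digit in the same libraries. Meg3, the maternally expressed non-coding RNA of the Dlk1 domain, was at 1168, 1466 and 1255 CPM in the 3 fasted S662D libraries with the digit, at 2722 and 2866 CPM in the 2 without it, and at 2424 to 2919 CPM in fasted controls. Snhg11, a neuronal non-coding host gene on another chromosome, was at 867, 975 and 780.1 CPM with the digit, at 1531 and 1514 CPM without it, and at 1465 to 1706 CPM in fasted controls. In fed S662D mice Meg3 was 1721 to 1883 CPM with the digit and 2555 to 2737 CPM without it, and Snhg11 was 1072 to 1240 CPM with it and 1440 to 1518 CPM without. These 2 genes were chosen after their values were seen. For both, every S662D library with the digit lay below every other library. Their part in the Snhg14 result was not tested.

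**Figure D3:**
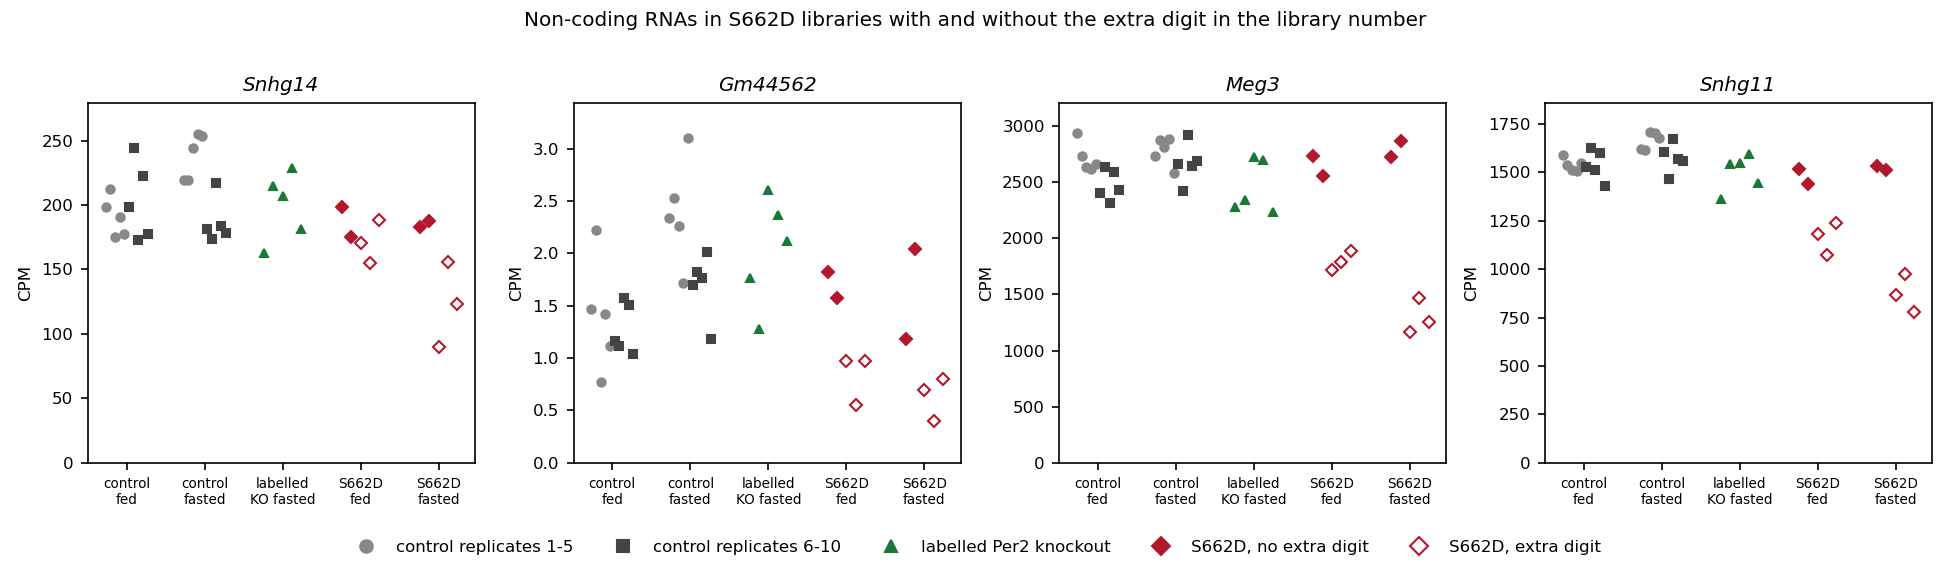
CPM of Snhg14, Gm44562, Meg3 and Snhg11 per library by group, with S662D libraries with the extra digit as open diamonds. In both feeding states the open symbols lie below the filled S662D symbols for Gm44562, Meg3 and Snhg11, and for Snhg14 they do so in fasted mice.

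Among cell type markers, fasted S662D mice had 3 of 5 endothelial genes called above fasted controls and 0 below. The endothelial sums were 175 to 230 CPM against 168 to 193 CPM. Called genes were 0 of 5 each for neurons, astrocytes, oligodendrocytes and microglia. In that comparison 605 of 18063 genes tested were called higher. Without the digit libraries it called 21 genes in either direction, against 1007 with all libraries. The part of the endothelial markers in the Snhg14 result was not tested.

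The ratio of Snhg14 to Ube3a counts sets the antisense host gene against the gene it runs into, and its mean was lowest in fasted S662D mice. Its log2 was 0.96 ± 0.14 in fed controls (n = 10), 1.00 ± 0.12 in fasted controls (n = 10), 0.86 ± 0.19 in the labelled knockout (n = 5), 0.77 ± 0.21 in fed S662D mice (n = 5) and 0.58 ± 0.27 in fasted S662D mice (n = 5; SD). Fasted S662D mice ran from 0.30 to 0.85 and fasted controls from 0.84 to 1.24, so the groups touched at 1 library. The difference of -0.43 between them gave p = 0.00133 in a two-sided exact permutation test (0.00666 adjusted over 5 comparisons). It no longer passed against control replicates 6 to 10 alone (-0.36, adjusted p = 0.0794, exact permutation test). With libraries paired by replicate number the difference was -0.49 (exact p = 0.0625, adjusted 0.156). That p is the smallest that 5 pairs allow, so the paired test could not pass. Fed S662D mice against fed controls differed by -0.19 (exact p = 0.0679, adjusted 0.148), the labelled knockout against fasted controls by -0.15 (exact p = 0.0886, adjusted 0.148) and fasted against fed S662D mice by -0.19 (exact p = 0.206, adjusted 0.258). Fasting moved the ratio by 0.04 in controls (permutation p = 0.464). Without the digit the fasted S662D difference was -0.16 (exact p = 0.0606, adjusted 0.221, n = 2 against 10), and with the digit alone it was -0.60 (exact p = 0.00699, adjusted 0.0175, n = 3 against 10).

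Gm44562 was rare in every group. It was at 0.773 to 2.23 CPM in fed controls (median 1.29) and at 1.18 to 3.11 CPM in fasted controls (median 1.92). The libraries labelled Per2 knockout gave 1.77, 1.28, 2.61, 2.37 and 2.12 CPM. Fed S662D mice gave 1.82, 0.971, 0.552, 0.968 and 1.57 CPM, and fasted S662D mice gave 1.19, 0.696, 0.401, 0.803 and 2.04 CPM. In both S662D groups the 3 libraries with the digit were the lowest 3, and the 2 without it lay within the range of the controls.

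The value that led to the choice of Gm44562 is a log2 difference of -0.94 between fasted S662D mice and fasted controls (SE 0.26). It was -1.68 with the digit libraries alone, -0.33 without them and -0.42 with the digit as a term. In controls the fasted mice were 0.60 above the fed mice (SE 0.21), in S662D mice the fasted mice were 0.13 below the fed (-0.13, SE 0.30), and the labelled knockout was 0.92 above fasted S662D mice (SE 0.29) and -0.01 from fasted controls (SE 0.24). In fed mice, which the choice did not use, S662D and control differed by -0.21 (SE 0.27, adjusted p = 0.718 by edgeR's quasi-likelihood test), which is within the spread of the libraries. The log2 ratio of Gm44562 to Snhg14 in the fed mice was -7.32 ± 0.56 for S662D (n = 5) and -7.22 ± 0.39 for controls (n = 10; exact permutation p = 0.668). It was -6.71 ± 0.31 in fasted controls (n = 10), -6.63 ± 0.42 in the labelled knockout (n = 5) and -7.30 ± 0.75 in fasted S662D mice (n = 5).

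Across the 35 libraries, log2 CPM of Snhg14 had Pearson's r = 0.654 with Ube3a, 0.628 with Gm44562, 0.801 with Meg3 and 0.844 with Snhg11. Gm44562 had r = 0.300 with Ube3a, 0.695 with Meg3 and 0.712 with Snhg11. The libraries share groups and library ranges and include the fasted libraries whose difference chose Gm44562. Meg3 and Snhg11 were chosen after their values were seen. The r values therefore only describe these libraries and are no support for a link.

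Ube3a and Snrpn, the 2 protein-coding genes on either side of Snhg14, had group means that lay close together. Group means of Ube3a lay between 96.4 ± 13.3 CPM in fasted S662D mice (n = 5) and 110 ± 13.4 CPM in the labelled knockout (n = 5). Its fitted log2 differences ranged from -0.13 to 0.19 over the 6 comparisons of 2 groups, and none passed. Single libraries of Ube3a ran from 73.1 CPM (fasted S662D) to 123 CPM (fasted control). In fed S662D mice Ube3a was 103.5 to 118 CPM with the digit and 93.15 to 95.2 CPM without it. In fasted S662D mice it was 73.1 to 105 CPM with the digit and 103 to 104 CPM without it. Its fasting response in controls differed between library ranges, as given further on. Snrpn group means lay between 376 ± 30.3 CPM in fed S662D mice (n = 5) and 419 ± 34.0 CPM in the labelled knockout (n = 5), and its differences from -0.11 to 0.10 did not pass. In fed mice, Snrpn was 342 to 367 CPM in the 3 S662D libraries with the digit and 404 to 411 CPM in the 2 without it, against 369 to 451 CPM in controls. In fasted S662D mice this split was not seen, with 372.5 to 427 CPM with the digit and 364 to 402 CPM without it. Fed S662D against control gave -0.11 for Snrpn (SE 0.05, adjusted p = 0.196). In that comparison 0 of the 9 members passed by edgeR's quasi-likelihood test, 2 had an unadjusted p under 0.05, DESeq2 also called 0, and 4.69% of all genes tested passed. Snrpn and Snhg14, which share an upstream start, had r = 0.109 over the 35 libraries.

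Ndn encodes necdin, a MAGE-family protein that holds back cell division in neurons, and its level fell into 2 separate bands. The upper band held only libraries of control replicates 6 to 10 and of S662D mice, and within these sets no label accounts for the split. In 25 libraries Ndn was 336 to 449.5 CPM (median 400.0) and in 10 libraries 598 to 682 CPM (median 639). No library lay between 449.5 and 598 CPM. The median of the upper band was 1.60 times that of the lower. The upper band held fed control replicates 6 and 9, fasted control replicates 6, 8 and 9, fed S662D replicates 1, 3 and 4, and fasted S662D replicates 2 and 5. It held 0 of 10 libraries of control replicates 1 to 5 and 0 of 5 labelled knockout libraries. Both feeding states and S662D libraries with and without the digit were in both bands. The split was chosen for description after the values were seen, and the bands were not compared for other genes.

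This empty interval is wide among genes. It took 40.3% of the range of Ndn in log2 CPM, which ranks 4 of 12068 genes of at least 5 CPM when at least 5 libraries lie on each side. Wdfy1, Clstn1 and Rusc2 ranked above it. The widest interval took 8.01% of the range for Magel2, 7.38% for Snrpn and 4.27% for Snhg14. The genes most like Ndn over the libraries reached only r = 0.559 (Qsox1) and 0.554 (Tmem114). Group means of Ndn were 443 ± 96.7 CPM in fed controls (n = 10), 473 ± 101 in fasted controls (n = 10), 427 ± 20.5 in the labelled knockout (n = 5), 544 ± 148 in fed S662D mice (n = 5) and 495 ± 164 in fasted S662D mice (n = 5). Its fitted differences had SEs of 0.14 to 0.20, and none passed.

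**Figure D4:**
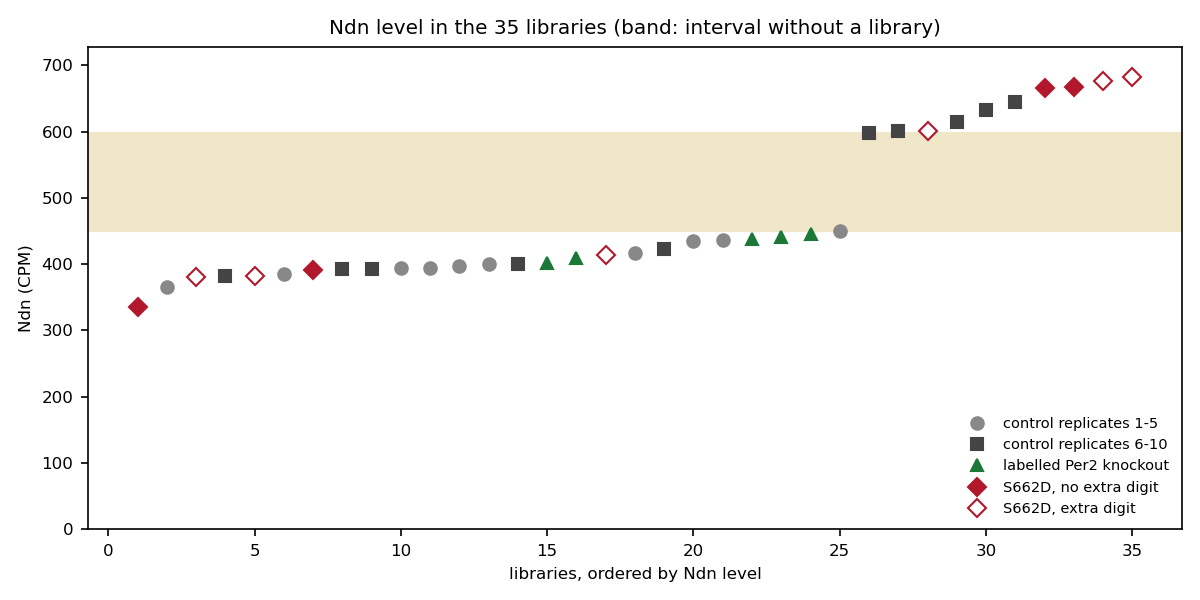
Ndn CPM of the 35 libraries in rising order, with symbols for group and library set and a band for the interval from 449.5 to 598 CPM that holds no library. The 10 libraries above it come from control replicates 6 to 10 and from S662D mice.

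Magel2, the second MAGE-family gene of the region, acts in protein recycling in hypothalamic neurons, and its loss alone gives a Prader-Willi-like disorder. It was at 29.1 to 39.0 CPM in fed controls (median 34.5) and 30.2 to 48.7 CPM in fasted controls (median 39.3). The labelled knockout gave 43.0, 40.5, 41.2, 42.0 and 41.0 CPM, fed S662D mice 34.6, 33.6, 33.9, 38.9 and 35.1 CPM, and fasted S662D mice 31.5, 30.4, 33.6, 31.9 and 39.9 CPM. The 5 knockout libraries lay close together and above all 5 fasted S662D libraries. Of the 9 members only Magel2 separated in this way, as did 2.17% of all genes tested.

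Magel2 was the 1 of 9 members that passed between the labelled knockout and fasted S662D mice, with a log2 difference of 0.31 (SE 0.09, adjusted p = 0.037, edgeR's quasi-likelihood test). In this comparison 7.34% of all genes tested passed, and 2.61% with a higher level in the knockout. The call was lost in 8 of the 10 fits that left out 1 library, with differences of 0.28 to 0.38. It was also lost without the digit libraries (0.22, adjusted p = 0.605) and with the digit as a term (0.27, adjusted p = 0.315). Snhg14 differed by 0.43 in the same comparison and did not pass (SE 0.15, adjusted p = 0.071), though DESeq2 called it (adjusted p = 0.0317). Fasted S662D mice against fasted controls gave -0.20 for Magel2 (SE 0.08, adjusted p = 0.138), which was -0.34 (adjusted p = 0.00547) against control replicates 1 to 5 and -0.04 (adjusted p = 0.815) against replicates 6 to 10. Of 5 endothelial markers 3 were called lower in the knockout than in fasted S662D mice, as was 1 of 5 thalamic markers. In that comparison 853 of 18063 genes tested were called lower. Of 10 hypothalamic markers 2 were called higher in the knockout, where 2.61% of all genes tested passed as higher. The part of these markers in the Magel2 result was not tested.

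Mkrn3 stayed below 1.33 CPM in every library. Its group means of 0.757 ± 0.169 CPM (labelled knockout, n = 5) to 0.949 ± 0.162 CPM (fed S662D, n = 5) overlapped throughout, and the SEs of its log2 differences were 0.16 to 0.23, and a call takes a change of several SEs, so changes of that size were not detectable at this depth.

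Peg3, Nnat and Dlk1, the members outside the region, did not pass in any of the 7 comparisons. Peg3 was the most abundant member by CPM, with group means from 862 ± 73.9 CPM in fasted S662D mice (n = 5) to 947 ± 63.1 in fed S662D mice (n = 5). Fasting in S662D mice gave -0.14 for Peg3 (SE 0.06, adjusted p = 0.237). In that comparison 0 of 9 members passed by edgeR and 1 had an unadjusted p under 0.05, DESeq2 called 0, and 2.64% of all genes passed. Nnat ranged from 326 to 487 CPM and Dlk1 from 134 to 198 CPM over all libraries, and their differences from -0.09 to 0.11 stayed within the spread of the groups.

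**Figure D5:**
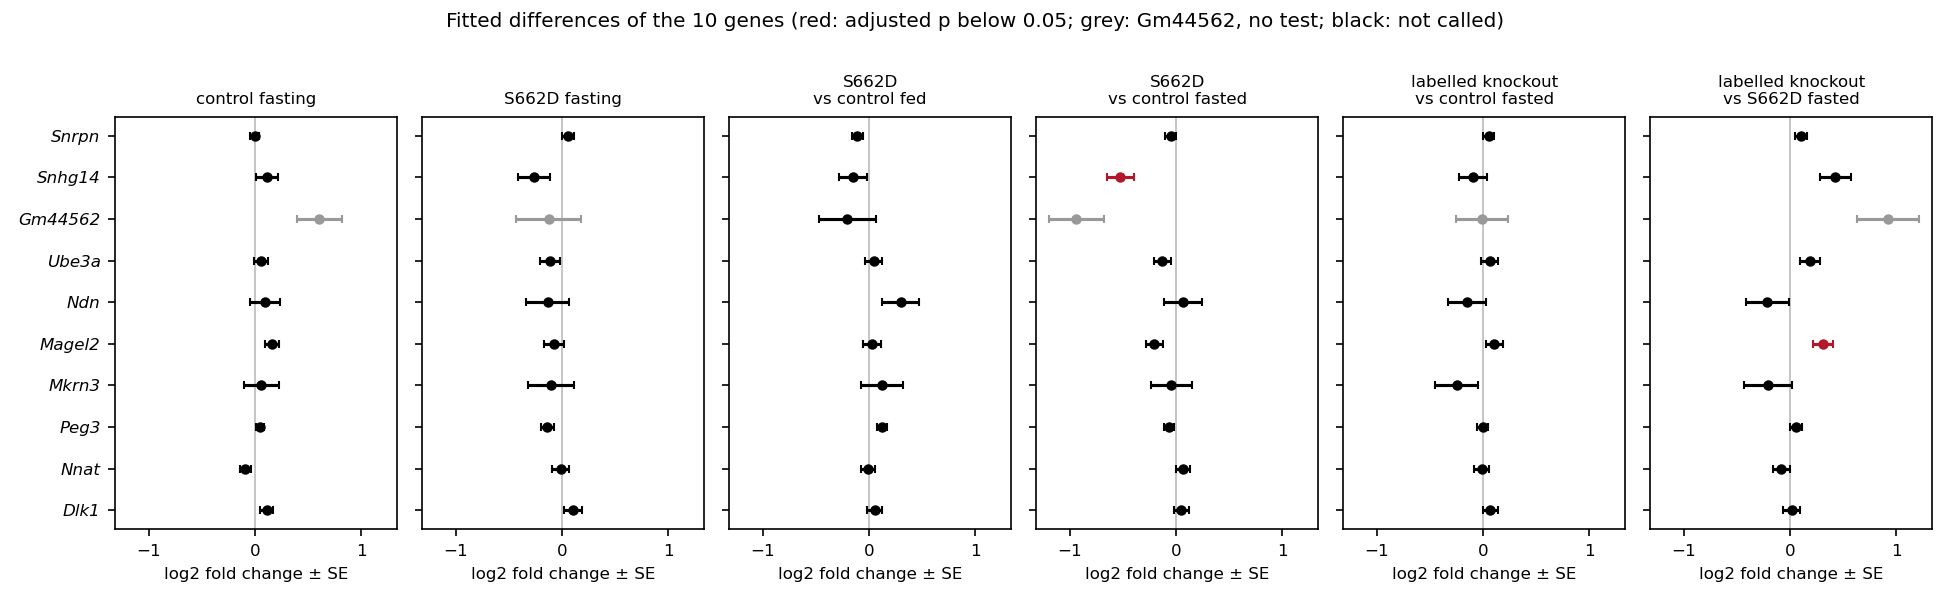
Fitted log2 fold change of each gene with its SE in 6 comparisons of 2 groups, with called genes in red and descriptive values of Gm44562 in grey. Snhg14 (-0.52) and Magel2 (0.31) are the 2 red points.

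The first question of the design is what fasting does in control mice, and for Snhg14, Ube3a and Peg3 the response differed between the 2 library ranges of the controls. Over all 20 control libraries 0 of 9 members passed by edgeR's quasi-likelihood test and 1 had an unadjusted p under 0.05 (Magel2, 0.16, SE 0.07, adjusted p = 0.254), DESeq2 called 0, and 3.88% of all genes passed. Within control replicates 1 to 5, the fasted mice lay above the fed mice without overlap for Ube3a (106 to 123 CPM against 87.5 to 102), Magel2 (39.3 to 48.7 against 29.1 to 39.0) and Snhg14 (219 to 255 against 175 to 213). These were 3 of the 9 members, chosen for mention after their values were seen, and 4.92% of all genes tested separated in the same direction. Within replicates 6 to 10, all 3 overlapped, at 90.7 to 106 against 97.7 to 120 CPM for Ube3a, 30.2 to 41.0 against 30.5 to 38.5 for Magel2 and 174 to 217 against 173 to 244 for Snhg14.

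The difference between the 2 fasting responses was then tested in the controls alone, a test added after the values were seen. The response in replicates 1 to 5 exceeded that in replicates 6 to 10 by 0.38 for Ube3a (SE 0.08, adjusted p = 0.00108, edgeR's quasi-likelihood test), by 0.24 for Peg3 (SE 0.05, adjusted p = 0.00173) and by 0.44 for Snhg14 (SE 0.13, adjusted p = 0.0272). These were 3 of 9 members, where 16.1% of all genes passed. Magel2 (0.34, adjusted p = 0.0791), Dlk1 (0.23, adjusted p = 0.0795), Snrpn (0.15, adjusted p = 0.09) and Nnat (-0.22, adjusted p = 0.156) did not pass. Magel2 was called in replicates 1 to 5 alone (0.32, adjusted p = 0.00956) and not in 6 to 10 (-0.01, adjusted p = 0.944).

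The interaction of fasting with the S662D genotype called 0 of 9 members by edgeR's quasi-likelihood test, with 2 at an unadjusted p under 0.05, and 0 by DESeq2. It called 0% of all genes tested, where 1151 had an unadjusted p under 0.05. The estimates were -0.18 for Peg3 (SE 0.07) and -0.37 for Snhg14. With control replicates 1 to 5 alone, Peg3 and Magel2 passed (adjusted p = 0.0327 and 0.0455), as did 2.67% of all genes tested. With control replicates 6 to 10 alone, the interaction called 0 of 18063 genes (lowest adjusted p = 0.891, edgeR's quasi-likelihood test).

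The labelled knockout did not differ from fasted controls in any member. Estimates lay between -0.25 for Mkrn3 (SE 0.20) and 0.11 for Magel2 (SE 0.08). With edgeR 0 of 9 passed and 0 had an unadjusted p under 0.05, DESeq2 called 0, and 0.0277% of all genes passed.

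Other genes of the region were mostly non-coding. From Ube3a to Peg12, 269 genes were listed, 145 of them at 0 counts, and 23 besides the members were tested. In fasted S662D mice against fasted controls 0 were called higher and 2 lower, RP24-274B19.1 (-0.58, SE 0.15, adjusted p = 0.0205) and RP23-54G8.4 (-0.55, SE 0.17, adjusted p = 0.0468). In that comparison 2.23% of all genes tested passed with a lower level. The median difference of the 23 was -0.40, against -0.003 over all genes tested, and 21 of 23 estimates were below 0. The spans of some of these genes overlap, so the estimates are not independent. How the 23 as a set split by the extra digit was not examined. RP24-274B19.1 was at 3.04 ± 1.02 CPM in fasted S662D mice (n = 5) and 4.60 ± 0.794 in fasted controls (n = 10). Against fasted S662D mice the labelled knockout had 4 of the 23 called higher and 0 lower, where 2.61% of all genes tested passed as higher. Among the 4 were A230103L15Rik (0.85, SE 0.26, adjusted p = 0.0384), Gm9801 (0.62, SE 0.20, adjusted p = 0.0454) and Gm44644 (0.35, SE 0.11, adjusted p = 0.0332). The 3 most abundant, B230209E15Rik (37.8 ± 3.42 CPM in fed controls), 9330162G02Rik (15.9 ± 2.03 CPM, SD, n = 10 each) and Gm38393, did not pass in any comparison. Without the digit libraries RP24-274B19.1 (-0.18) and RP23-54G8.4 (-0.01) no longer passed against fasted controls, nor did any of the 4 against the knockout, and with the digit as a term none of these calls remained, though Gm44644 differed by 0.32 and 0.35 in these fits. Both calls against fasted controls were also lost with only the groups compared (adjusted p = 0.0727 and 0.179) and against control replicates 6 to 10 (0.193 and 0.256), and that of RP23-54G8.4 without a filter on low counts (0.111). The 4 calls against the knockout were lost with only the groups compared. None of the 23 was called for fasting in either genotype, for S662D in fed mice or for the knockout against control.

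Genes that flank the imprinted domain and are not imprinted, or weakly so, include GABA receptor subunits. Of 10, 1 was called for fasting in controls, higher: Atp10a, a phospholipid transporter (27.2 ± 3.18 against 20.9 ± 2.35 CPM, n = 10 each, 0.38, SE 0.08, adjusted p = 0.001). The Atp10a call was lost in control replicates 6 to 10 alone (0.24, adjusted p = 0.263). Gabra5 was higher in the labelled knockout than in fasted S662D mice (0.27, SE 0.08, adjusted p = 0.0248), and the other comparisons called 0. Over all genes tested, 3.88% passed for fasting in controls and 7.34% between the knockout and fasted S662D mice.

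Among 17 tested paternally expressed genes outside the list of members, 1 was called in fed S662D mice, Usp29, the neighbour of Peg3 (102 ± 5.62 CPM, n = 5, against 88.9 ± 6.03, n = 10, 0.19, SE 0.05, adjusted p = 0.0179). Sgce (0.21) and Rtl1 (0.37), an imprinted gene of the Dlk1 domain, were higher in the labelled knockout than in fasted S662D mice (adjusted p = 0.0363 and 0.0396). The other comparisons called 0, and the list's medians were -0.04 to 0.12, where those of all genes tested were -0.01 to 0.01. Over all genes tested, 4.69% passed in fed S662D mice against fed controls and 7.34% between the knockout and fasted S662D mice.

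Of 15 tested maternally expressed genes, 5 passed in fasted S662D mice against fasted controls, 4 lower and 1 higher. In that comparison 5.57% of all genes tested passed, and 2.23% passed with a lower level. Zim1 in the Peg3 domain fell by 0.32 (-0.32, SE 0.08, adjusted p = 0.0145), Meg3 by 0.52 (-0.52, SE 0.15, adjusted p = 0.0374) and Rian, another non-coding RNA of the Dlk1 domain, by 0.16 (-0.16, SE 0.05, adjusted p = 0.028), while Trappc9 rose by 0.20 (SE 0.05, adjusted p = 0.0205). The call not named here was a lower one. Meg3 and Rian lie in the same domain, so their calls are not independent. The list median was -0.003, the same as for all genes tested. Without the digit libraries these differences were -0.14 for Zim1, 0.01 for Rian and 0.06 for Trappc9, and none passed. Igf2r rose in fed S662D mice (0.25, SE 0.06, adjusted p = 0.0145), and Zim1 was higher in the knockout than in fasted S662D mice (0.38, SE 0.09, adjusted p = 0.00938).

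Among 14 imprinting control factors, 2 were lower in fasted S662D mice than in fasted controls: Zfp57 (10.3 ± 2.06 CPM, n = 5, against 14.1 ± 2.29, n = 10, -0.45, SE 0.11, adjusted p = 0.0108) and Zfp445 (-0.18, SE 0.05, adjusted p = 0.0363), the zinc-finger proteins that keep imprints methylated. Over all genes tested, 2.23% passed as lower there. Zfp57 was 0.66 higher in the labelled knockout than in fasted S662D mice (SE 0.12, adjusted p = 0.000899). Without the digit libraries these differences were -0.19, -0.03 and 0.40, and none passed. Of 12 Sm-core genes, partners of the Snrpn product, Snrpd1 was lower in fed S662D mice (-0.34, SE 0.09, adjusted p = 0.0231) and 0 others were called in any comparison. The share of all genes tested that passed in fed mice was 4.69%. Of 13 MAGE-family genes and partners of Magel2 and Ndn, 0 were called in any of the 7 comparisons by edgeR's quasi-likelihood test.

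Among 17 hypothalamic peptide and processing genes reported in Prader-Willi models, 3 rose with fasting in controls: the hunger peptides Npy (12.2 ± 2.41 against 9.33 ± 1.03 CPM, n = 10 each, 0.39, SE 0.09, adjusted p = 0.00263) and Agrp (4.42 ± 1.37 against 2.90 ± 0.572 CPM, n = 10 each, 0.61, SE 0.16, adjusted p = 0.0196) and Pcsk1, the prohormone convertase (0.20, SE 0.05, adjusted p = 0.0239). In control replicates 6 to 10 alone none of these 3 passed, with 0.26 for Npy, 0.27 for Agrp and 0.03 for Pcsk1, and Agrp also missed the threshold without a filter on low counts (adjusted p = 0.0502). In fasted S662D against fed S662D mice 0 of the 17 were called, where 2.64% of all genes tested passed. That comparison had fewer libraries per group than the one in controls. With all libraries the interaction of fasting with genotype also called 0 of the 17. The fasting response of these genes is therefore not shown to differ between the genotypes. Of the 17, 4 were higher in the labelled knockout than in fasted S662D mice, among them Hcrt, the orexin gene (0.45, SE 0.12, adjusted p = 0.0158). Over all genes tested, 3.88% passed for fasting in controls, and 2.61% passed as higher in the knockout than in fasted S662D mice. Apart from Meg3, whose levels with and without the digit are given above, 0 of the genes named from these lists in comparisons with S662D mice passed without the digit libraries, which leaves 2 S662D libraries a group, or with the digit as a term. Not all of the differences became smaller: without the digit libraries the knockout differed from fasted S662D mice by 0.30 for Gabra5, 0.36 for Pcsk1 (0.30 with all libraries) and 0.54 for Npy (0.41 with all libraries), and with the term Usp29 differed by 0.18 in fed mice. Against control replicates 6 to 10 alone, the following calls of S662D against control did not pass, with -0.21 for Zim1, -0.26 for Zfp57, -0.12 for Zfp445, -0.14 for Rian, 0.17 for Trappc9, 0.14 for Usp29, 0.24 for Igf2r and -0.21 for Snrpd1 (adjusted p from 0.105 to 0.393). With only the groups compared, Rian, Trappc9, Zfp57 and Zfp445 were lost against fasted controls, and Sgce and Rtl1 against the knockout.

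The genes most like each member over the 35 libraries, by Pearson's r of log2 CPM among genes of at least 1 CPM, differed from member to member. Snhg14 was most like Nktr (r = 0.925) and Srrm2 (0.925), Ube3a most like Dzip3 (0.911) and Hook3 (0.903), and Peg3 most like Usp24 (0.884) and Arfgef3 (0.884). Snrpn was most like Tpt1-ps3 (0.83) and Gm12671 (0.819), Gm44562 most like Cers4 (0.804) and Nsmaf (0.788), and Magel2 most like Tro (0.733), a MAGE-family gene, and Arhgap36 (0.731). Nnat was most like Dpf1 (0.81) and P3h4 (0.788), and Dlk1 most like B630019K06Rik (0.791) and Copg1 (0.765). Mkrn3, below 1 CPM on average, was left out. No member was among the 2 genes most like another member.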

How the data were processed

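Each library came as a table of unnormalised gene counts made by the authors (per the file headers, with featureCounts 2.0.1 on GENCODE vM12, summed by gene name, multi-mapping reads counted, no strand option and no option to count a fragment for several overlapping genes). STAR 2.7.10b is named in the submitters' processing notes, with mm10 as the build. Here, genes were kept with filterByExpr (minimum count 10) and scaled by TMM, and all 35 libraries entered 1 edgeR 4.0.16 quasi-likelihood fit with group means (R 4.3.3). The deposited counts became CPM by TMM-scaled library size. Adjustment was Benjamini-Hochberg over 18063 genes, with a threshold of 0.05. SEs come from the F statistic. Ratios used counts plus 0.5 and permutation of group means, exact where a group had under 10 libraries and with 100000 resamples otherwise. Alternatives included DESeq2 1.42.0. The members and gene lists were chosen with earlier results of these data known. Named genes are all members, Per2, up to 3 called genes per list and comparison with the lowest p, the 3 most abundant and any called gene of the region, and the 2 genes most like each member. Meg3, Snhg11, Wdfy1, Clstn1 and Rusc2 fall outside this rule and were chosen after their values were seen. On simulated counts for fed S662D against fed control (18063 genes), 54% of changes of 0.25 and 98% of changes of 1 (log2) were recovered. No 2 libraries held identical values. The labels do not say whether libraries of a group came from separate mice or litters, so p-values measure the spread between these libraries. Same-numbered fed and fasted libraries deviated together little: 0 of 10 control pairs had r above 0.1, and 2 of 5 S662D pairs did (highest 0.16). Replicates 2, 3 and 4 of both S662D groups do share the extra digit.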

Additional observations from a re-analysis of the deposited data

Results flagged for a closer look

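In 3 of 50 sets of libraries (10 genes in 5 groups), 1 library stood apart from the rest of its group. Chance gives about 1 in 20 such sets. Ube3a was at 73.1 CPM in fasted S662D replicate 2, and the other 4 libraries were at 97.4 to 105 CPM. This library also had the lowest Snhg14 level (89.8 CPM). Magel2 was at 38.9 CPM in fed S662D replicate 4, with the others at 33.6 to 35.1 CPM. Nnat was at 487 CPM in fed control replicate 5, with the others at 393 to 438 CPM.

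The fasting response of the controls differed between replicates 1 to 5 and replicates 6 to 10 for Snhg14 (by 0.44 on the log2 scale), Ube3a (by 0.38) and Peg3 (by 0.24), by edgeR's quasi-likelihood test of the difference.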

How the results depend on the processing

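Of 62 tests of members that did not pass, 7 passed under some alternative. Over the alternatives other than leaving out 1 library, the number of members called moved as follows. Control fasting gave 1 with control replicates 1 to 5. The interaction gave 2 there. S662D against control in fed mice gave 1 there and 2 with the digit libraries alone. In fasted mice it gave 2 with the replicate block and with control replicates 1 to 5, and 0 with only the groups compared, control replicates 6 to 10, no digit libraries or the digit as a term. The labelled knockout against fasted S662D mice gave 2 with DESeq2 and 2 with the digit libraries alone, and 0 without a filter, without the digit libraries or with the digit as a term. Leaving out 1 library gave 0 to 2 called in fasted S662D against control and 0 to 2 in the knockout against S662D. The log2 ratio of Snhg14 to Ube3a in fasted S662D against control was -0.492 with the replicate block (exact p = 0.0625, the smallest that 5 pairs allow), -0.361 with control replicates 6 to 10 and -0.159 without the digit libraries, none of which passed. It passed in fed mice with the digit libraries (-0.333). Leaving out 1 library moved it from -0.270 to -0.143 in fed S662D against control (passing without fed S662D replicate 1), from -0.228 to -0.107 in the labelled knockout against control (passing without knockout replicate 3) and from -0.496 to -0.356 in fasted S662D against control. The replicate block moved the all-gene count from 1007 to 1092 in fasted S662D mice and from 701 to 697 in control fasting. Same-numbered libraries had correlations of -0.191 to 0.0587 in controls and -0.109 to 0.16 in S662D mice. All-gene counts for S662D against control were 3126 fed and 3146 fasted with the digit libraries, 16 and 21 without them, 23 and 20 with the digit as a term, 1711 and 1679 with control replicates 1 to 5, and 33 and 43 with 6 to 10. The knockout against S662D gave 1325 in all, 2995 with the digit libraries, 28 without, 42 with the term and 437 with only the groups compared. Leaving out 1 library gave 66 to 1673 for fed S662D against control (66 without fed replicate 4), 156 to 1799 for fasted (156 without fasted replicate 4) and 529 to 1854 for the knockout against S662D. Fed S662D against control gave 1426 with DESeq2, and fasted 297 with only the groups compared. S662D fasting gave 476, 5 without the digit libraries and 281 with only the groups compared. Control fasting gave 1303 with control replicates 1 to 5 and 298 with 6 to 10, the interaction 482 with 1 to 5 and 9 with the digit libraries, and the knockout against control 104 with 6 to 10. The ratio of Gm44562 to Snhg14 passed in no setting. The causes were not tested. Counts of 9 to 69 limit Gm44562, and 11 to 32 limit Mkrn3.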
